A study of Mus musculus with 11 samples.

Results

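Olfactory ensheathing glia are cells of neural crest origin that wrap the axons of OSNs (olfactory sensory neurons) from the lamina propria of the nose to the olfactory bulb. They arise through the transcription factor Sox10 and the neuregulin receptor Erbb3, as other glia of peripheral nerves do, and they are marked by the calcium-binding protein S100b, the fatty acid-binding protein Fabp7, the neuropeptide Npy and the Wnt antagonist Frzb. The 6 genes of that list were taken by symbol from the table of raw read counts of the whole main olfactory epithelium (MOE), where each was 1 of 24421 entries. All 6 of 6 were found in the table, and 6 of 6 passed the filter on low counts. None of the 6 is made in these glia alone: Sox10 is also known from melanocytes and exocrine glands, S100b and Frzb from cartilage, Npy from neurons and Erbb3 from epithelia.

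The RNA came from mice with a germline deletion of the olfactory Taar (trace amine-associated receptor) cluster from Taar2 to Taar9. There were 3 wild type libraries (2 intact copies of the cluster), 4 heterozygous libraries (1 copy) and 4 homozygous libraries (0 copies). Per the labels all mice were of strain C57BL/6 and of age P1-P2, whereas the reporting part of the paper gives an older age and a mixed background for this line, and the difference was not settled here. The tissue was labelled as whole MOE and was not sorted, so that in these bulk samples fewer cells of a type and less RNA per cell cannot be told apart. Mice of both sexes were used for this line, while the sex of each library, litters and library dates were not given in the sources used here, and nothing in the labels says that replicates came from separate animals, so p-values measure the spread between these libraries.

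Total counts ranged from 9239866 to 14632525 per library. The summed counts of the Taar genes were 87 to 119 in wild type, 31 to 96 in heterozygous and 1 to 3 in homozygous libraries, in the order of the labels. On the first principal component (41.6% of the variance) the libraries fell into 2 sets that each held all 3 genotypes. Set 1 held wild type 1 and 2, heterozygous 3 and 4, and homozygous 1 and 2, and set 2 held the other 5. In homozygous 2 the ribosomal entry Rn45s took 25.8% of the counts, against 0.0848% to 0.786% elsewhere.

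The genes lie apart in the genome (mm10, GENCODE coordinates). Sox10 is on chr15:79154908-79165240 (minus strand), Npy on chr6:49822710-49829507 (plus) and Frzb on chr2:80411970-80447625 (minus). The other 3 of 6 share chromosome 10 with the deleted cluster, whose Taar genes span chr10:23938572-24109534. Fabp7 at chr10:57784881-57788450 (plus) starts 33.7 Mb beyond it, S100b at chr10:76253853-76261159 (plus) 52.1 Mb beyond it, and Erbb3 at chr10:128567523-128589652 (minus) 104.5 Mb beyond it. S100b overlaps the opposite-strand gene Dip2a with 0 shared exon bases.

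The windows before the start sites are shown for S100b and Npy, the members of highest and lowest length-scaled level. They are the 250 bases before the RefSeq start (GRCm38.p6, plus strand), at chr10:76253586-76253835 for S100b and chr6:49822460-49822709 for Npy. The letters ACAAAG, the core that Sox proteins bind, were searched on both strands. The related forms ACAATG and, in the same way, ACAATA were counted with it, and these words cannot share a start. A match was found in 0 of the 4 members that have a RefSeq window (S100b, Npy, Fabp7 and Frzb). Of all 32851 windows of that length 30.5% held one. Capitals were reserved for matches, so the windows stand in lower case. Windows for Sox10 and Erbb3 were not analysed here.
S100b: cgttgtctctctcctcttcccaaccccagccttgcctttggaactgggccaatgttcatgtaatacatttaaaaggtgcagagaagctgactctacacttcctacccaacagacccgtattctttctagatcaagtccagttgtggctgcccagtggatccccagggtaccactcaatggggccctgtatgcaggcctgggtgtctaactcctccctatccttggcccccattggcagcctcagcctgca
Npy: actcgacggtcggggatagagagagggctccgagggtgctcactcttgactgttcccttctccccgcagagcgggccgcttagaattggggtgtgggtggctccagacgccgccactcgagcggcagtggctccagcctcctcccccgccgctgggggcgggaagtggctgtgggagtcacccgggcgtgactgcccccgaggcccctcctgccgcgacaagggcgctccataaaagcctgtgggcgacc

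Per length, S100b and Fabp7 stood highest and Npy lowest. Levels are given as CPM (counts scaled to a common TMM-adjusted library total), and between genes as CPM per kb of merged exon length (566 bases for Npy to 6016 bases for Erbb3). S100b had 46.9 ± 7.47 CPM per kb (SD, n = 11), Fabp7 36.2 ± 9.10, Sox10 19.6 ± 8.14, Erbb3 19.1 ± 2.35, Frzb 9.43 ± 1.92 and Npy 6.90 ± 2.57. Neighbours in this order were not all separated: S100b exceeded Fabp7 in 8 of 11 libraries, Fabp7 exceeded Sox10 in 10 and Erbb3 exceeded Frzb in 11, whereas Sox10 exceeded Erbb3 in only 5 and Frzb exceeded Npy in 8. These ratios depend on the annotated exon length, and the transcripts in use were not measured.

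**Figure D1:**
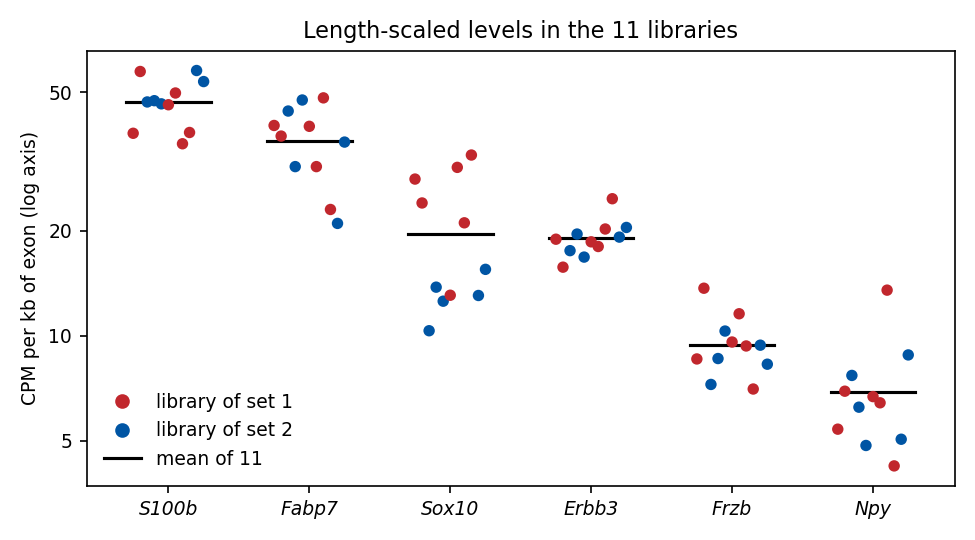
Length-scaled level (CPM per kb of exon, log axis) of each gene in the 11 libraries, ordered by mean, with points coloured by library set and a line at the mean of 11 libraries. S100b (46.9) and Fabp7 (36.2) lie above the other genes, Sox10 and Erbb3 overlap around 19.6 and 19.1, and the set 2 points of Sox10 lie in its lower part.

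Loss of the Taar cluster on 1 or both chromosomes moved none of the 6 genes past the threshold (adjusted p under 0.05, edgeR quasi-likelihood test over 16574 genes). In homozygous against wild type libraries 0 of 6 members passed, where 0% of all genes did, and at an unadjusted p under 0.05 the count was 1 of 6 (Erbb3), where 3.02% of all genes reached it. Erbb3 was also the 1 of 6 members whose groups did not overlap, where 4.99% of all genes did not. In heterozygous against wild type libraries 0 of 6 members reached an unadjusted p under 0.05 (2.24% of all genes) and 0 of 6 failed to overlap (2.51%). Between homozygous and heterozygous libraries these counts were again 0 of 6 (0.561%) and 0 of 6 (0.597%), and 0 of 6 passed the adjusted threshold here or for heterozygotes (0% of all genes in both). DESeq2 called 0 of 6 members in each of these comparisons, in the same order, where it called 0.0371%, 0.0139% and 0.00927% of 21582 genes. At an unadjusted p under 0.05 DESeq2 had 1 of 6 members (Erbb3), 0 and 0, where 2.93%, 2.28% and 0.556% of genes reached it. The median log2 fold change of the members was -0.024 in homozygous against wild type libraries (0.015 over all genes), -0.065 for heterozygotes against wild type (0.0018) and 0.091 between homozygous and heterozygous libraries (0.0062). The 3 comparisons share libraries, so their values are not independent of each other.

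**Figure D2:**
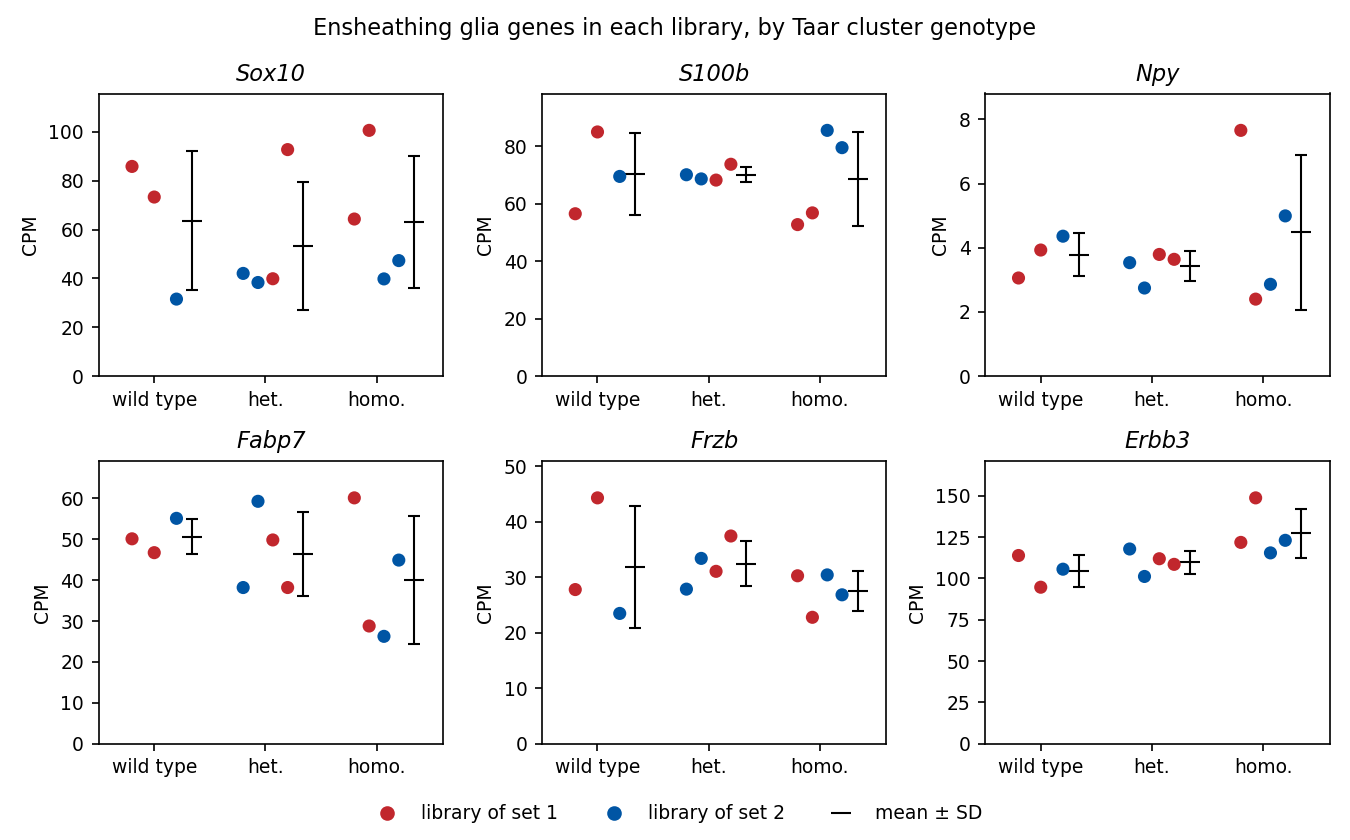
CPM of each gene (linear axis from 0) in every library by genotype, with points coloured by library set and black bars at the mean ± SD of each genotype. The genotypes overlap for every gene, except that all 4 homozygous libraries of Erbb3 (115 to 149 CPM) lie above the 3 wild type ones (94.7 to 114 CPM).

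Erbb3 encodes the receptor through which neuregulin from axons keeps peripheral glia and their precursors alive. Its levels were 114, 94.7 and 106 CPM in wild type 1 to 3, 118, 101, 112 and 109 CPM in heterozygous 1 to 4, and 122, 149, 115 and 123 CPM in homozygous 1 to 4. Every homozygous library stood above every wild type library, with homozygous 3 (115 CPM) and wild type 1 (114 CPM) nearest to each other, and the heterozygous libraries overlapped both. The log2 fold change of homozygous against wild type was 0.28 (SE 0.13, 95% interval 0.0015 to 0.56, edgeR adjusted p = 0.996), higher in 4 of 4 libraries. An exact two-sided permutation test of the CPM gave p = 0.0571, the smallest that 3 against 4 libraries can give. Groups of these sizes that do not overlap always give this value, so the test restates the lack of overlap. It was 1 of 18 such tests, added after the data were seen, with no adjustment. Without homozygous 2, which had the highest Erbb3 level and the large Rn45s share, the log2 fold change was 0.19, and without wild type 2 it was 0.21, neither at an unadjusted p under 0.05. Within set 1 the log2 ratio of means was 0.38 (2 against 2 libraries) and within set 2 it was 0.18 (2 against 1). Against heterozygous libraries it was 0.21 (SE 0.12). Erbb3 varied least of the members, with a biological coefficient of variation of 14.3%.

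Of the 17 genes of the neuregulin and ERBB list, the ligands, receptors and sheddases around Erbb3, 13 passed the filter and 0 passed the adjusted threshold in any comparison by edgeR. At an unadjusted p under 0.05 there was 1 (Erbb2, higher in heterozygous than in wild type libraries), and 0 in the other comparisons. Erbb2, the co-receptor that Erbb3 needs for signalling, had 104.6 CPM in wild type, 130.7 in heterozygous and 127.7 in homozygous libraries, a log2 fold change of 0.29 (SE 0.14) for homozygous and 0.32 (SE 0.14) for heterozygous against wild type. The most abundant genes of that list by CPM were the sheddase Adam10 (mean 155), Erbb2 (122), the protease Bace1 (122) and the sheddase Adam17 (61.1). Nrg1, the axonal ligand, had 8.03 to 16.3 CPM, and Erbb4 and Nrg3 had at most 9 and 6 counts in a library. The median log2 fold change of the list for homozygous against wild type was 0.083.

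Sox10, the transcription factor that specifies glia and melanocytes from the neural crest, varied most between libraries by biological coefficient of variation (38.4%, with Npy next at 33.1%). It had 85.9, 73.4 and 31.6 CPM in wild type 1 to 3, 42.1, 38.4, 39.9 and 92.8 CPM in heterozygous 1 to 4, and 64.4, 101, 39.8 and 47.3 CPM in homozygous 1 to 4. Each genotype thus held libraries near 40 CPM or below and libraries above 60 CPM, a span of 3.19 times over the 11 libraries, the same as that of Npy. The log2 fold changes were -0.014 (SE 0.42) for homozygous against wild type, -0.26 (SE 0.42) for heterozygotes against wild type, and 0.24 (SE 0.39) between both deletion genotypes. The 95% interval of the first ran from -0.93 to 0.90, which spans changes of either sign. The split followed the library sets more closely than genotype. Set 1 averaged 76.2 ± 22.1 CPM (SD, n = 6) and set 2 39.8 ± 5.74 CPM (n = 5), and heterozygous 3 was the set 1 library that lay among those of set 2. With the library set as a covariate the log2 fold change of homozygous against wild type was 0.18 (SE 0.25), and without homozygous 1 and 2 it was -0.56 (SE 0.46).

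Across libraries the level of Sox10 went with several genes of the nasal glands and with some genes of glia. The 5 libraries highest in Sox10 (homozygous 2, heterozygous 4, wild type 1, wild type 2 and homozygous 1) were also the 5 highest for 4 of 8 nasal gland genes (Aqp5, Dmbt1, Ltf and Bpifb9a) and for Foxi1 of the microvillar cell list. They were also the 5 highest for 2 of 6 endothelial genes (Kdr and Emcn), 3 of 13 neuregulin and ERBB genes (Egf, Areg and Adam17) and 1 of 15 secreted frizzled-related and Wnt genes (Wnt5a), and for 0 of 18 other glia genes and 0 of 9 myelinating Schwann cell genes. Of all tested genes, 5.34% were highest in these 5. These counts ask for exactly the same 5 libraries, so near matches are left out. Cnp and Kcnj10 of the other glia genes and Obp2a of the gland genes shared 4 of these 5 libraries, all but homozygous 1. The genes named here were chosen after their values were seen. In the 5 libraries highest in Sox10, Ltf (lactotransferrin, a secreted iron-binding protein) had 241 to 623 CPM and in the other 6 it had 94.9 to 220 CPM. Aqp5, the water channel of gland acini, had 131 to 202 CPM against 69.8 to 106 CPM.

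Likeness was measured as Pearson's r of log2 CPM over the 11 libraries after the mean of each library set was subtracted. It is a description, since the points share depth and dissection. For Sox10 it was 0.89 with Aqp5 (0.84 without the 2 libraries farthest in Sox10, heterozygous 3 and homozygous 2), 0.77 with Ltf (0.78) and 0.79 with the odorant-binding gene Obp2a (0.65). Bpifa1, the most abundant gland gene at a mean of 4158 CPM, gave 0.080 (0.69). Over the 8 nasal gland genes the median r was 0.56 (0.66 without those 2 libraries), over the 9 myelinating Schwann cell genes it was 0.31 (0.63), over the 18 other glia genes -0.16 (0.20) and over all tested genes 0.028 (0.049). Without those 2 libraries the gland and Schwann cell lists thus had like medians. The 18 other glia genes ranged from -0.61 to 0.61, with 2 of 18 over 0.5. The summed gland list was 6027 to 10273 CPM in wild type, 5414 to 11054 CPM in heterozygous and 6200 to 6903 CPM in homozygous libraries, with 0 of 8 genes at 0. The part of gland tissue in the Sox10 values was not tested beyond a fit with the gland level as covariate, in which the log2 fold change of homozygous against wild type was 0.19 (SE 0.21).

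**Figure D3:**
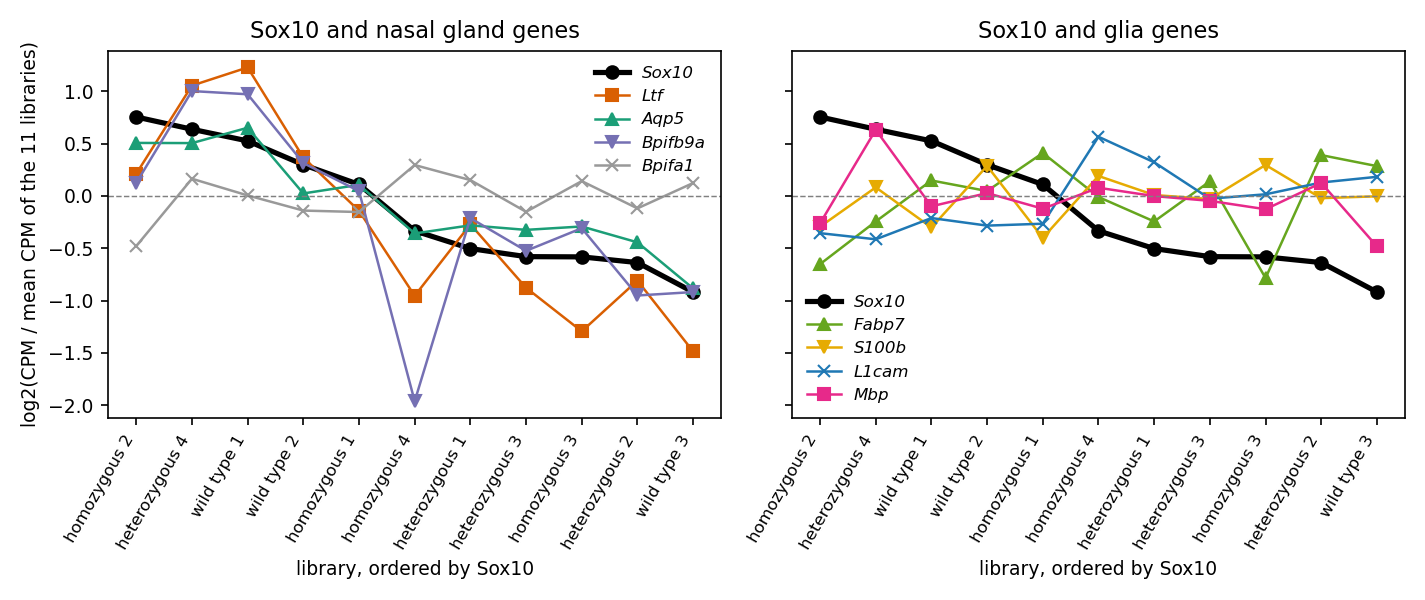
Log2 of CPM relative to the mean of the 11 libraries, with libraries ordered by Sox10, for Sox10 with 4 nasal gland genes (left) and 4 glia genes (right). The genes of both panels were chosen after their values were seen. Ltf, Aqp5 and Bpifb9a fall from left to right with Sox10 and Bpifa1 does not. After subtraction of library set means, r with Sox10 was -0.47 for Fabp7, -0.028 for S100b, -0.29 for L1cam and 0.31 for Mbp, and genes of the 2 glia lists that are not plotted reached 0.67.

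Melanocytes, the other neural crest line that uses Sox10, left mixed values. Dct and Tyr, enzymes of pigment synthesis, had at most 10 counts each in any library, and 4 of 6 melanocyte genes fell below the filter. The 2 that passed were Pmel, a pigment granule protein, at 20 to 60 counts and the transcription factor Mitf at 80 to 136 counts per library. Of the 12 partner and target genes of Sox10, 12 were tested and 0 passed the adjusted threshold in any comparison by edgeR, with 0 at an unadjusted p under 0.05 in each. Among the most abundant were Sox9 (mean 64.3 CPM), Pax3 (40.2) and Zeb2 (30.3).

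S100b, a calcium-binding protein of glia and chondrocytes, had means of 70.3, 70.2 and 68.7 CPM in wild type, heterozygous and homozygous libraries. Its levels were 56.5, 85.0 and 69.5 CPM in wild type 1 to 3, 70.1, 68.6, 68.2 and 73.7 CPM in heterozygous 1 to 4, and 52.7, 56.8, 85.5 and 79.5 CPM in homozygous 1 to 4. The heterozygous libraries lay close together (70.2 ± 2.51 CPM) and the homozygous ones fell in a low and a high pair. The log2 fold changes were -0.035 (SE 0.19, 95% interval -0.45 to 0.38), -0.0038 (SE 0.19) and -0.031 (SE 0.18) for homozygotes against wild type, heterozygotes against wild type and homozygotes against heterozygotes. The homozygous pairs differed by library set. Within set 1 homozygous libraries averaged 54.8 CPM and heterozygous ones 71.0, and within set 2 the averages were 82.5 and 69.4, each over 2 against 2 libraries. This difference between the sets was not tested.

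Of the 14 other S100 genes, with the S100 receptor Ager among them, 13 were tested and 0 passed the adjusted threshold by edgeR. At an unadjusted p under 0.05 there was 1 in homozygous against wild type (S100a9, higher) and 0 in the other comparisons. The most abundant by CPM were S100a6 (mean 188), S100a1 (170), S100a5 (157) and S100a11 (123). S100a5 is known from OSNs, and S100a8 and S100a9 from neutrophils.

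Fabp7, also called brain lipid-binding protein, marks radial glia, astrocyte precursors and ensheathing glia. It had 50.1, 46.7 and 55.1 CPM in wild type 1 to 3, 38.2, 59.3, 49.8 and 38.2 CPM in heterozygous 1 to 4, and 60.1, 28.8, 26.3 and 44.9 CPM in homozygous 1 to 4. The homozygous group held both the highest and the 2 lowest libraries, so it spanned the whole range. The means were 50.7 ± 4.22 (SD, n = 3) in wild type, 46.4 ± 10.2 (n = 4) in heterozygous and 40.03 ± 15.8 CPM (n = 4) in homozygous libraries, and the groups overlapped. The log2 fold change was -0.34 (SE 0.27, 95% interval -0.93 to 0.25, edgeR adjusted p = 0.996) for homozygous and -0.13 (SE 0.27) for heterozygous against wild type. The first value turned on single libraries. Without homozygous 1 it was -0.60 (SE 0.24, edgeR adjusted p = 0.841), which reached an unadjusted p under 0.05, and without homozygous 2 or homozygous 3 it was -0.22 or -0.18, which did not.

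The other fatty acid-binding protein genes were few in this tissue. Of 8, 3 were tested (Fabp5 at a mean of 15.3 CPM, Fabp4 at 6.72 and Fabp3 at 0.866), Fabp1 had 0 counts in all 11 libraries and 0 passed the adjusted threshold by edgeR in any comparison. At an unadjusted p under 0.05, 2 were higher in homozygous (Fabp4, the form of fat cells and capillaries, and Fabp3, that of muscle) and 1 in heterozygous (Fabp3) than in wild type libraries. The summed skeletal muscle list ranged from 14.9 to 78.3 CPM in wild type, 24.3 to 2028 in heterozygous and 36.7 to 952 in homozygous libraries, with 0 of 12 genes at 0, and its part in the Fabp3 values was not tested.

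Npy, a peptide transmitter of neurons that ensheathing glia also make, was the least abundant member, with 22 to 91 counts per library. Its levels were 3.06, 3.93 and 4.36 CPM in wild type 1 to 3, 3.54, 2.75, 3.79 and 3.64 CPM in heterozygous 1 to 4, and 7.66, 2.40, 2.86 and 4.99 CPM in homozygous 1 to 4. Homozygous 1 stood above all other libraries with 91 counts (exact Poisson 95% interval 73.3 to 112, for counting error only) and homozygous 2 below them with 22 (13.8 to 33.3). The log2 fold change was 0.24 (SE 0.37, 95% interval -0.56 to 1.04, edgeR adjusted p = 0.996) for homozygotes against wild type, and without homozygous 1 it was -0.14. Against heterozygous libraries it was 0.39 (SE 0.34), and heterozygous against wild type libraries gave -0.15 (SE 0.37).

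The library highest in Npy also held the most transcripts of olfactory bulb neurons. Slc17a7, the glutamate transporter of mitral cells, had 94 counts in homozygous 1 and 7 to 34 elsewhere, and Gad1, an enzyme of GABA synthesis, had 40 counts against 1 to 17. Both were chosen after their values were seen. The 4 most abundant of the 8 bulb genes were Cdhr1 (mean 104 CPM), Gad2 (22.0), Reln (21.2) and Eomes (3.55). Reln and Eomes, genes of mitral cells, were also highest in homozygous 1 (44.0 and 6.56 CPM), whereas Gad2 (15.8 CPM) and Cdhr1 (114 CPM, the same after rounding as in heterozygous 1, the highest) were not. Of the 8, 5 passed the filter, and their median r with Npy was 0.64 (0.18 without the 2 libraries farthest in Npy, homozygous 1 and homozygous 2), against -0.0087 over all tested genes. The summed bulb list was 143 to 169 CPM in wild type, 134 to 165 in heterozygous and 121 to 194 in homozygous libraries. Its part in the Npy values was not tested. Of the 8 neuropeptide Y family genes 3 were tested (Dpp4, Npy1r and Npy2r, at means of 16.6, 5.81 and 2.69 CPM) and 0 passed the adjusted threshold or an unadjusted p under 0.05 in any comparison by edgeR. Pyy and Ppy, the sister peptides, had at most 1 and 2 counts in a library.

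Frzb, a secreted frizzled-related protein that binds Wnt ligands, was the member with the second smallest level per length. It had 27.8, 44.3 and 23.5 CPM in wild type 1 to 3, 27.9, 33.4, 31.1 and 37.5 CPM in heterozygous 1 to 4, and 30.3, 22.8, 30.4 and 26.9 CPM in homozygous 1 to 4. Wild type 2 was the highest library, and the other 10 lay between 22.8 and 37.5 CPM. The log2 fold change was -0.21 (SE 0.21, 95% interval -0.67 to 0.26, edgeR adjusted p = 0.996) between homozygotes and wild type, and 0.11 once wild type 2 was left out. Heterozygous libraries gave 0.025 (SE 0.21) against wild type, and homozygous ones -0.23 (SE 0.20) against heterozygous.

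Across libraries Frzb went with S100b, and its likeness to gene lists turned on few libraries. Its r was 0.71 with S100b (0.46 without the 2 libraries farthest in Frzb, wild type 2 and homozygous 2), and the median over 6 fibroblast genes was 0.60 (0.41) for Frzb and 0.63 (0.25) for S100b. Over 12 skeletal muscle genes the median for Frzb went from 0.31 to 0.85 without its 2 farthest libraries. Over 9 myelinating Schwann cell genes it was 0.44 (0.61) for Frzb and 0.46 (0.52) for S100b, so that without 2 libraries this list stood above the fibroblast list for both. Wild type 2 also held the highest Col1a1 level, the main collagen of bone and connective tissue, at 3734 CPM against 1273 to 2946 CPM elsewhere. Over 12 cartilage genes the median r was 0.31 for Frzb and 0.51 for S100b, which fell to 0.26 and 0.25 without the 2 farthest libraries of each. The cartilage list was high in all libraries, with Col2a1, the main cartilage collagen, at 3493 to 9557 CPM and 12 of 12 genes tested. Of 18 genes of the secreted frizzled-related and Wnt list, 15 were tested and 0 passed the adjusted threshold by edgeR. At an unadjusted p under 0.05 there was 1 (Dkk3, higher) in homozygous and 1 (Dkk3, higher) in heterozygous against wild type libraries, and 0 between the deletion genotypes. The most abundant were Sfrp2 (mean 412 CPM), Sfrp1 (387), Dkk3 (98.1) and the Wnt target Axin2 (73.3).

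**Figure D4:**
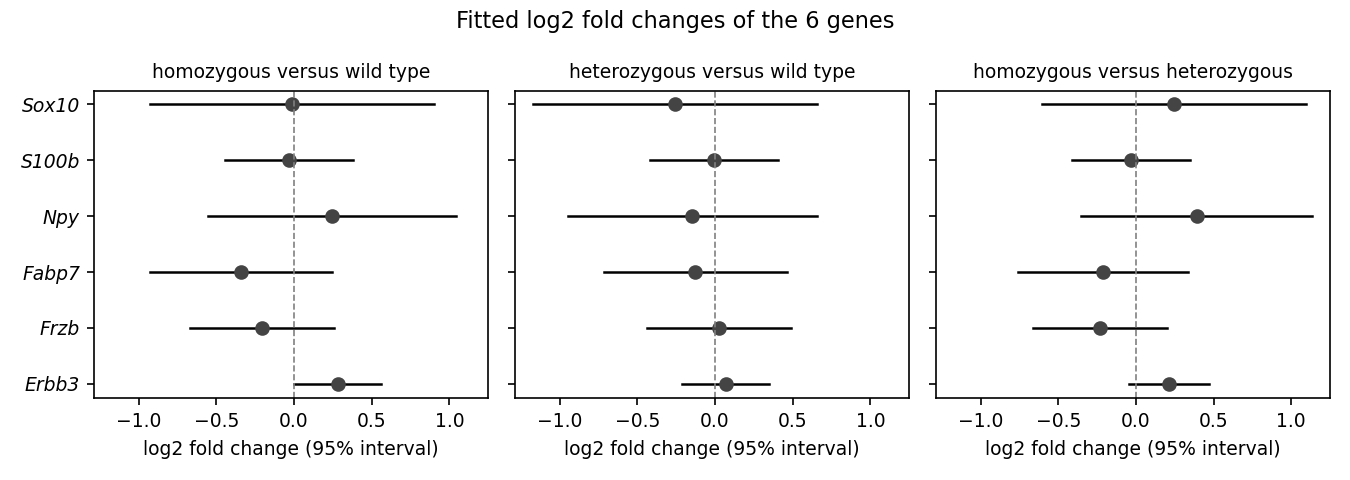
Fitted log2 fold change (edgeR, point) with 95% interval (line) of each gene in the 3 comparisons, with a dashed line at 0. The intervals of Sox10 and Npy are the widest, and the interval of Erbb3 in homozygous against wild type (0.0015 to 0.56) is the 1 of 18 that does not cross 0.

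Other genes of ensheathing glia and related neural crest glia were present in every library. All 18 of 18 were tested, with Apod (mean 233 CPM) and L1cam (104) among the most abundant, and Foxd3 (50 to 134 counts), Cdh19 (31 to 82) and Ngfr (132 to 281) were detected throughout. By edgeR 0 of 18 passed the adjusted threshold in any comparison. At an unadjusted p under 0.05 there were 2 in homozygous against wild type (Cryab higher, Gpr37l1 lower), 1 in heterozygotes against wild type (Gfap, higher) and 1 between the deletion genotypes (Gfap, lower in homozygotes). The Gfap values came from heterozygous 1 and 2 (15.3 and 14.04 CPM), while the other 9 libraries had 1.61 to 4.04 CPM. The median log2 fold change of the 18 was 0.0073, 0.084 and -0.073 in these 3 comparisons, in that order. The summed list was 669 to 847 CPM in wild type, 697 to 828 in heterozygous and 673 to 844 in homozygous libraries.

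The list of myelinating Schwann cell genes, which would accompany nerve in the dissection, had 9 of 10 genes tested and 0 past the adjusted threshold or an unadjusted p under 0.05 in any comparison by edgeR. Its most abundant genes were Pmp22 (mean 68.2 CPM), Mbp (56.5) and Pllp (32.0). Median r with that list was -0.28 for Fabp7 and -0.15 for Npy, and -0.56 and 0.00074 without the 2 libraries farthest in each. In the 22 lists of other cell types and related genes, 0 genes passed the adjusted threshold in any of the 3 comparisons by edgeR. At an unadjusted p under 0.05 in edgeR, 11 of 12 skeletal muscle genes in heterozygotes and 5 of 12 in homozygotes were above wild type. Of all genes, 2.24% and 3.02% reached that p. The median log2 fold changes of the muscle list were 4.16 and 3.44. Its summed level was 14.9 to 78.3 CPM in wild type libraries. Heterozygous 1 and 3 (35.8 and 24.3) and homozygous 4 (36.7) lay within that range. Heterozygous 2 and 4 (698 and 2028) and homozygous 1 to 3 (145, 494 and 952) lay above it. Each other list had at most 2 genes at an unadjusted p under 0.05 in a comparison. Of 6 oligodendrocyte genes, Mog, a marker of central myelin, and Mobp had at most 6 and 13 counts in a library. The 4 that were tested were Pdgfra (mean 146 CPM), Cspg4 (100) and the transcription factors Olig2 (83.5) and Olig1 (55.6). Pdgfra was also in the fibroblast list. The oligodendrocyte list, with Pdgfra and Cspg4 as its most abundant genes, summed to 322 to 439 CPM per library.

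The 6 genes did not move as 1 group across these libraries. Of their 15 pairs 2 had r over 0.5 (S100b with Frzb at 0.71 and Npy with Fabp7 at 0.55) and 10 were below 0, with a median of -0.10 and the lowest at -0.79 (Frzb with Erbb3). Npy with Fabp7 fell to 0.19 and 0.25 without the 2 libraries farthest in Npy or in Fabp7, and Frzb with Erbb3 to -0.32. The name ensheathing glia genes thus describes where they are known from.

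**Figure D5:**
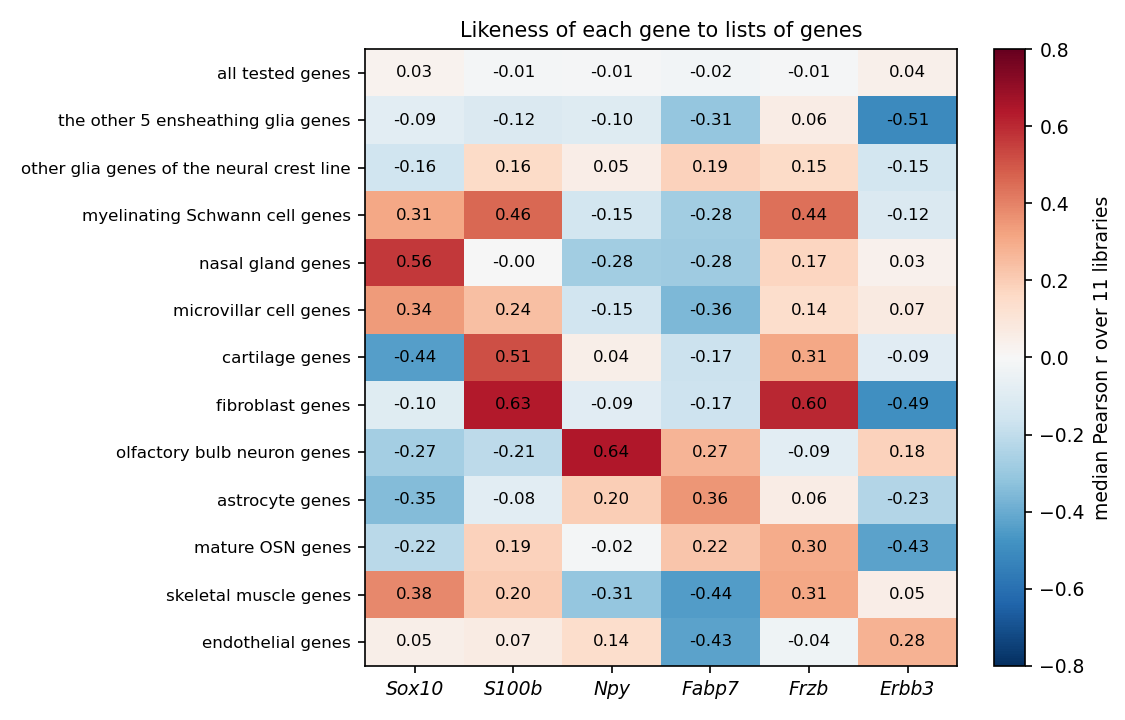
Median Pearson r (log2 CPM over 11 libraries, library set means subtracted) of each gene in columns with lists of genes in rows, with red for positive and blue for negative values. With all 11 libraries Sox10 is highest with nasal gland genes (0.56), S100b and Frzb with fibroblast genes (0.63 and 0.60), Npy with olfactory bulb neuron genes (0.64), and no gene reaches 0.2 with the other glia genes.

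The genes most alike to each member by this measure differed from member to member. For Sox10 they were Eps8l2 (r 0.95), Itgb4 (0.95) and Dcaf4 (0.95), of which Itgb4 is the integrin of hemidesmosomes. For Erbb3 they were Lmtk2 (0.98), Ptpru (0.95) and Dedd2 (0.94), and for S100b Gsg1l (0.93), Sost (0.92) and Zfp521 (0.91). For Fabp7 they were AA415398 (0.95), Rbm3 (0.92) and B3gat2 (0.92), for Npy Mzb1 (0.87), Cpne6 (0.87) and Erc2 (0.87), and for Frzb the gelatinase gene Mmp9 (0.93), Olfr533 (0.92) and Olfr46 (0.89). Several of these genes were low, with Gsg1l, Sost, Mzb1, Cpne6, B3gat2 and Olfr46 at means of 0.889 to 1.97 CPM, where counting noise is large. The highest of 16573 values is high by selection, so these are the closest genes in 11 libraries and no more.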

How the data were processed

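Raw read counts per gene were deposited by the authors for 11 MOE libraries (polyA selection, directional kit), made with Trimmomatic (0.36), HISAT2 (2.1.0) on mm10 and featureCounts (Subread 1.6.2). Strand setting and treatment of multiply aligned reads were not given in the sources used here. The authors also deposited a normalised signal, the count divided by 1 factor per library, used here as an alternative level. Both tables held 0 columns of no sample, and 27 symbols had been turned into dates.

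The counts were tested with edgeR (4.0.16, R 4.3.3): TMM scaling, filterByExpr, 1 quasi-likelihood fit of the 3 genotypes, F-tests, and Benjamini-Hochberg adjustment over 16574 genes. SE are the log2 fold change divided by the root of F. The script was tested on simulated data. DESeq2 (1.42.0), RLE scaling, no filter, library set or replicate number as covariate and leaving out each library were alternatives. An exact permutation test of each member's CPM was added after seeing the data. Exon lengths came from GENCODE M21. Likeness used log2 CPM with a prior count of 2.

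All members were named, with up to 4 genes of highest mean CPM per list, genes past the threshold and the 3 genes most alike per member. Other genes were chosen after their values were seen. The members and lists were chosen with earlier results of these data known. Cnmd was read under its older symbol Lect1. A few list genes are not reported here.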

Additional observations from a re-analysis of the deposited data

Results flagged for a closer look

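In the heterozygous group (4 libraries) Sox10 in heterozygous 4 stood far from the others, at 92.8 CPM against 38.4 to 42.1 CPM. It was the 1 flag in 12 groups of 4 (6 genes, 2 genotypes), a rule that marks about 1 in 20 groups by chance. Wild type groups of 3 were not tested. The rule took no account of the library sets, with heterozygous 3 and 4 in set 1 and heterozygous 1 and 2 in set 2. In set 1 Sox10 had a mean of 76.2 CPM and ranged from 39.9 CPM (heterozygous 3) to 101 CPM. Heterozygous 4 had the highest summed nasal gland (11054 CPM) and skeletal muscle (2028 CPM) levels of all libraries. Their part in the Sox10 value was not tested.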

How the results depend on the processing

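No alternative moved a member past the adjusted threshold: 0 of 6 were called in each comparison under 9 other settings, DESeq2 among them, and without each of the 11 libraries, and the lowest adjusted p of a member was 0.482 (Fabp7 in homozygous against wild type, without homozygous 1 and 2). Over all genes edgeR as designed called 0 in each comparison, the edgeR fit with a replicate block and only the 2 genotypes called 31, 5 and 0, and DESeq2 8, 3 and 2 (homozygous and heterozygous against wild type, then between the deletion genotypes). Of 18 fold changes, 9 kept their sign throughout and 9 did not. Homozygous against wild type, Sox10 (-0.014) became 0.18 with library set as covariate, 0.12 with a replicate block fitted to these 2 genotypes and 0.19 with the gland level as covariate, and -0.56 without homozygous 1 and 2. The gland covariate, Rn45s left out, and homozygous 1 and 2 left out were chosen after seeing the data. Without homozygous 1 and 2, S100b became 0.21 against wild type and 0.22 against heterozygous libraries, and Sox10 -0.30 against heterozygous. Frzb in heterozygous against wild type became -0.0081 with the 2-genotype replicate block. Leaving out 1 library gave for homozygous against wild type -0.34 to 0.26 (Sox10), -0.17 to 0.12 (S100b), -0.39 to 0.11 (Frzb) and -0.14 to 0.44 (Npy). For heterozygous against wild type it gave -0.66 to 0.020 (Sox10), -0.14 to 0.15 (S100b) and -0.15 to 0.34 (Frzb), and for homozygous against heterozygous -0.079 to 0.63 (Sox10) and -0.16 to 0.077 (S100b). Fabp7 in homozygous against wild type (-0.34) ranged from -0.60 to -0.18 without 1 library, was -0.53 without homozygous 1 and 2 and -0.50 with the 2-genotype replicate block, and reached an unadjusted p under 0.05 without homozygous 1. The unadjusted call of Erbb3 held in 5 of 20 alternatives (p of 0.0239 to 0.263, log2 fold change 0.17 to 0.35, adjusted p 0.590 to 1). Replicate numbers did not pair the libraries: 3 of 10 same-number pairs correlated over 0.1 (range -0.58 to 0.42) and 0 of 11 libraries matched their own number best, and the replicate block over all genotypes called 0 of 6 members. The authors' normalised signal changed no ratio of means beyond the spread. Intervals are wide at 3 or 4 libraries per genotype, least so for Erbb3.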
